A study of Mus musculus with 12 samples.

Results

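The genes described here are 41 targets of the tumour suppressor p53 and factors of cellular senescence, taken by symbol from a table of 27105 genes counted in mouse liver. All 41 were found in the table, 39 of them had at least 1 count in every library, and 37 passed the filter on low counts and were tested. The study compared 6 RNA-seq libraries from livers of mice on a control diet with 6 from mice on a ketogenic diet, which is low in carbohydrate and high in fat. Libraries are named by diet and replicate number (control 1, ketogenic 4). Both groups are given in the labels by diet alone, and the labels used here do not state strain, genotype, sex, age, or the make-up and length of the diets.

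The p53 protein is a transcription factor that is kept scarce by the ubiquitin ligase Mdm2 and is stabilised by DNA damage and other stress, so its activity is set largely at the protein level and is usually read from the transcripts of its targets. Some targets stop the cell cycle (Cdkn1a, which encodes the kinase inhibitor p21), some favour cell death (Bax, Bbc3), and others serve repair and antioxidant defence (Ddb2, Sesn1). Senescence is a lasting arrest of the cell cycle that is marked by p21 and p16 (Cdkn2a), by loss of the nuclear lamin Lmnb1 and by a secretion of cytokines, chemokines and proteases (Il6, Ccl2, Mmp12). In liver, hepatocytes make up most of the RNA, and several of the secreted factors are known from macrophages and other minor cells.

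p53 binds DNA at pairs of a 10-base half-site. RefSeq promoter windows of 300 bases, from 250 before to 50 after a transcription start (build GRCm38.p6), were found for 30 of the 41 genes, as 41 windows. A match to the consensus half-site, which reads as the same pattern on both strands, was present in 13 of the 41 windows (31.7%) and in 8.36% of all 32851 windows of the table. The windows of the members were also richer in the GC box (GGGCGG on either strand, 61.0% of windows against 35.7%) and in the E-box (CACGTG, 14.6% against 7.15%), and held the TATA box (TATAAA on either strand) in 17.1% against 13.6%. A half-site, the E-box and the GC box were searched separately and can overlap. Only exact matches were counted, so a site that departs from the consensus at any base was missed, as was any site outside the windows. These are counts of letters and carry no test. By gene, the GC box was held by 20 of the 30 and a half-site by 12. Over all 27025 genes with a window, 10324 held the GC box and 2582 a half-site. The windows of Aen overlap and hold the same half-site, which is counted in each. The exact matches shown here are each a single half-site and not a pair. Whether p53 binds them was not tested.
Mdm2: GAACTTGCCT
Ccng1: GGGCAAGCCT
Bax: AGGCAAGCTT
Ei24: GGGCATGCCC
Aen: GGGCTTGTCC
Trp53: GGACTTGCCC
Polk: GAACTAGCCT
Rap2b: GGGCATGCTC
Gtse1: GGGCTTGCCT
Il6: GGGCTAGCCT

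Of the genes that the results below turn on, Cdkn1a held 2 exact half-site matches in its upstream window and none in its other window. Sesn1 held 1 in the window of its downstream start and none at its other start. None of the 3 windows of Bbc3 and neither window of Sulf2 held an exact match. The windows follow 5′ to 3′ on the strand of the gene, with the exact matches in capitals. That of Cdkn1a is chr17:29090729-29091028 on the plus strand, and that of Sesn1 is chr10:41887189-41887488 on the plus strand. The first window of Bbc3, chr7:16309333-16309632 on the plus strand, is shown as a window without an exact match. It holds ctgcaagccc directly followed by cgacttgtcc, which come near the pattern. In the Cdkn1a window the matches at bases 178 to 187 and 200 to 209 do not adjoin. The latter is directly followed by tgacatgttc, which also comes near the pattern. Whether p53 binds these stretches was not tested.
Cdkn1a: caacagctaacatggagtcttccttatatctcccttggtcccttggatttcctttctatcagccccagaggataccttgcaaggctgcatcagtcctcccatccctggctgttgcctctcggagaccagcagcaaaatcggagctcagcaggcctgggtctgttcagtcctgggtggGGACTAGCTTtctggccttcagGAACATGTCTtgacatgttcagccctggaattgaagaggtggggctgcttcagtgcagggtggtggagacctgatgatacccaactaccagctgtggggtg
Sesn1: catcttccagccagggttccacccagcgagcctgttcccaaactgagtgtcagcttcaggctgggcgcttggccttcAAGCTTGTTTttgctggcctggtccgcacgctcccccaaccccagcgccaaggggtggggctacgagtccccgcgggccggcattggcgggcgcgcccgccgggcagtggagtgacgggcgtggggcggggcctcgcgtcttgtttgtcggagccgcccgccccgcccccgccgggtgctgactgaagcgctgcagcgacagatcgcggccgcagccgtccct
Bbc3: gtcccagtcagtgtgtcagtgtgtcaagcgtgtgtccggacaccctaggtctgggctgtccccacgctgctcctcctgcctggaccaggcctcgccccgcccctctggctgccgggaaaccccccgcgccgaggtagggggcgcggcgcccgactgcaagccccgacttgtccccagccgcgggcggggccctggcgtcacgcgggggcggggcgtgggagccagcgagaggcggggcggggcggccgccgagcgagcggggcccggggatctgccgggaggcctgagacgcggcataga

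The libraries held 30.2 to 33.5 M counts (M, 1e6 counts). Ketogenic 4 stood apart. Its median correlation with the other ketogenic libraries was 0.951, against 0.978 to 0.984 for those, and its deviation from the other 11 libraries fell with transcript length (Spearman rho of -0.496 across genes, against -0.310 to 0.312 in the others). It was the highest ketogenic library for 19 of the 37 tested members (51.4%) and for 33.1% of all tested genes. Fits without it are given below for the 3 called members, for members whose call they change, and for tested members of which this library was far above the other ketogenic libraries. No technical batch is named in the labels. The series text calls the replicates biological and says no more of how they were taken, so p-values measure the spread between these libraries.

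On the ketogenic diet 3 of the 37 tested members rose and 0 fell at an adjusted p under 0.05 (edgeR's quasi-likelihood test, Benjamini-Hochberg adjustment over 13995 genes). They were Bbc3, which encodes the pro-apoptotic protein Puma, Sesn1, which encodes the stress-induced regulator sestrin 1, and Sulf2, which encodes a sulfatase that trims heparan sulfate at the cell surface. Of all tested genes 3.78% were called, 2.34% as higher and 1.44% as lower, so the members' 8.11% is a matter of 3 genes. With scaling by library size alone, which raised the median of all genes by 0.07 on the log2 scale, 448 genes were higher and 127 lower, in place of 328 and 201, and 4 members were called, all higher. Over the 37 members the median log2 fold change was 0.09, with 24 above 0 and 13 below, and over all genes it was 0.00. The best-known target, Cdkn1a, stood lower on the ketogenic diet and missed the threshold. Unadjusted p-values were under 0.05 for 9 members. Without ketogenic 4, 4 members rose (the same 3 and Dglucy) and 1 fell (Cdkn1a). DESeq2 called these same 5 genes. The levels (in CPM, counts per 1e6 counts of the TMM-scaled library size) of the diets did not overlap for the same 3 members, against 3.54% of all tested genes.

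**Figure D1:**
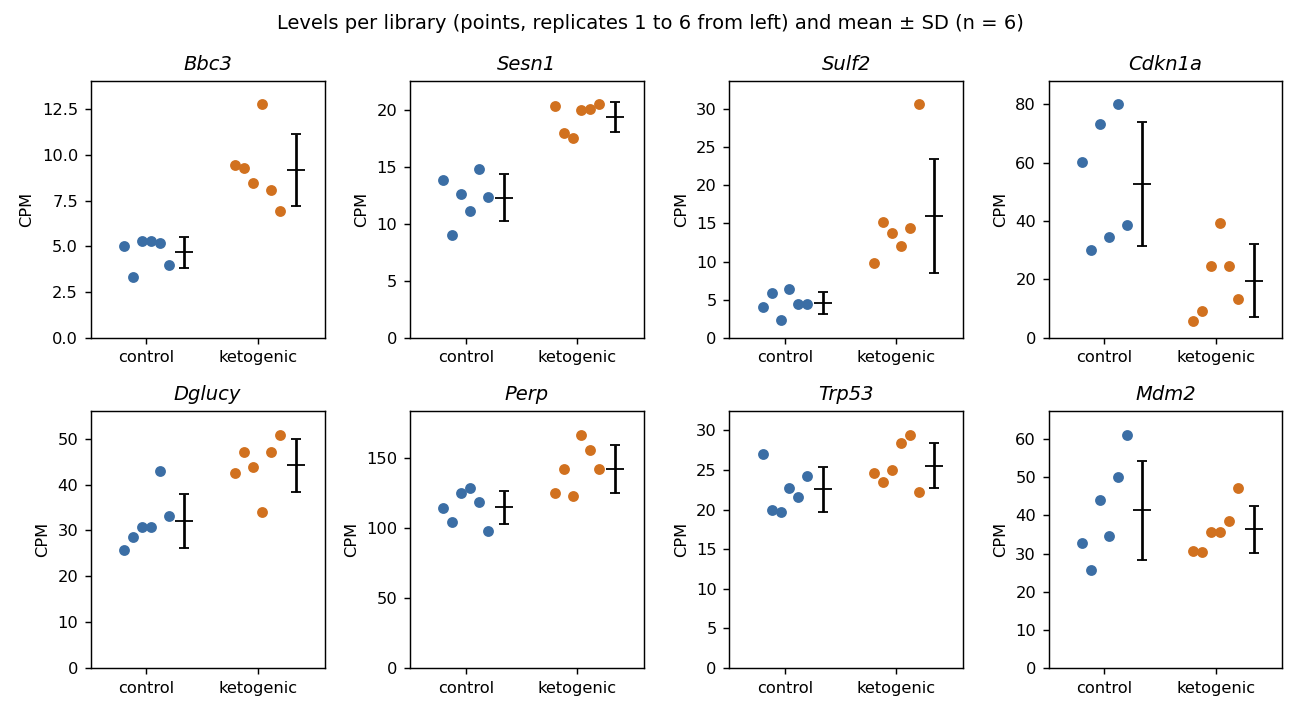
Levels of 8 members in each library in CPM (vertical axis from 0), with control libraries in blue, ketogenic libraries in orange, and the mean ± SD of 6 libraries in black. The diets do not overlap for Bbc3, Sesn1 and Sulf2, and Cdkn1a is lower in most ketogenic libraries.

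Trp53, the gene of p53 itself, was measured at 19.7, 22.2 and 27.1 CPM (lowest, median and highest control library) and at 22.3, 24.8 and 29.5 CPM on the ketogenic diet. The diets overlapped widely, and 5 of the 6 ketogenic libraries lay above the control mean. The log2 fold change (ketogenic over control, ± SE from edgeR) was 0.18 ± 0.11, adjusted p = 0.442. Mdm2, the ubiquitin ligase that is both antagonist and target of p53, had 25.8, 39.3 and 61.2 CPM in the control libraries and 30.4, 35.6 and 47.3 CPM in the ketogenic ones. All ketogenic values lay inside the control range, at a log2 fold change of -0.19 ± 0.19 (adjusted p = 0.709).

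Among the 7 genes of cell cycle arrest and mitosis, 6 were tested and 0 were called by edgeR or limma-voom, with 1 at an unadjusted p under 0.05 and 1 called by DESeq2, in both cases Cdkn1a. Cdkn1a (ENSMUSG00000023067, chromosome 17, 29309950 to 29319701 by the deposited table, for which no build is stated) had 29.97, 49.4 and 79.9 CPM in the lowest, median and highest control library. In the ketogenic libraries it had 5.78, 18.9 and 39.4 CPM. All 6 ketogenic libraries lay below the control mean of 52.8 ± 21.3 CPM (SD, n = 6), and 5 of them lay below every control library, the exception being ketogenic 4. With a log2 fold change of -1.44 ± 0.43 the gene did not pass the threshold in edgeR (adjusted p = 0.0899). It passed in 2 of 20 alternatives, without ketogenic 4 (log2 fold change -1.77, adjusted p = 0.0428) and with DESeq2 (adjusted p = 0.00557), in a range of adjusted p from 0.00557 to 0.252 over all of them. The direction was the same in each of the 20.

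Btg2, an antiproliferative gene and immediate early target of p53 and growth signals, ran from 8.25 through 32.9 to 194 CPM over the control and from 11.8 through 74.0 to 399 CPM over the ketogenic libraries. Its spread within each diet exceeded the difference between them (log2 fold change 1.20 ± 0.95, adjusted p = 0.613). The change was 2.28 without control 6 (adjusted p = 0.235) and 0.33 without ketogenic 6 (adjusted p = 0.917). Plk3, a polo-like kinase of the stress response, had 15.3, 33.8 and 92.3 against 20.5, 67.7 and 135 CPM (0.75 ± 0.45, adjusted p = 0.465). Replicate 6 was the highest library of both diets for Btg2 and Plk3, and for 6 of the 37 tested members in all (16.2%), against 4.50% of all tested genes. The labels do not say what a shared replicate number stands for.

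Ccng1, which encodes cyclin G1, an early known target of p53, was at 50.1 ± 7.08 against 49.0 ± 4.04 CPM (mean ± SD, n = 6), and its log2 fold change was -0.03 ± 0.10 (adjusted p = 0.930; 0.04 with scaling by library size alone). The kinase gene Plk2 was at 16.5 ± 4.30 against 16.3 ± 3.94 CPM (-0.01 ± 0.18, adjusted p = 0.982; 0.06 by library size alone and -0.16 without ketogenic 4). For both, the reported difference was smaller than its error. Gtse1, which encodes a microtubule-bound protein of the G2 phase that restrains p53, was near the limit of detection at 9 to 34 counts per control and 16 to 54 counts per ketogenic library (log2 fold change 0.76 ± 0.42, adjusted p = 0.402). Psrc1, a mitotic spindle gene, had 0 to 14 counts in control and 3 to 30 counts in ketogenic libraries and did not pass the filter. It had 0 counts in control 2, which allows up to 0.0917 CPM (3 counts, counting error only).

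**Figure D2:**
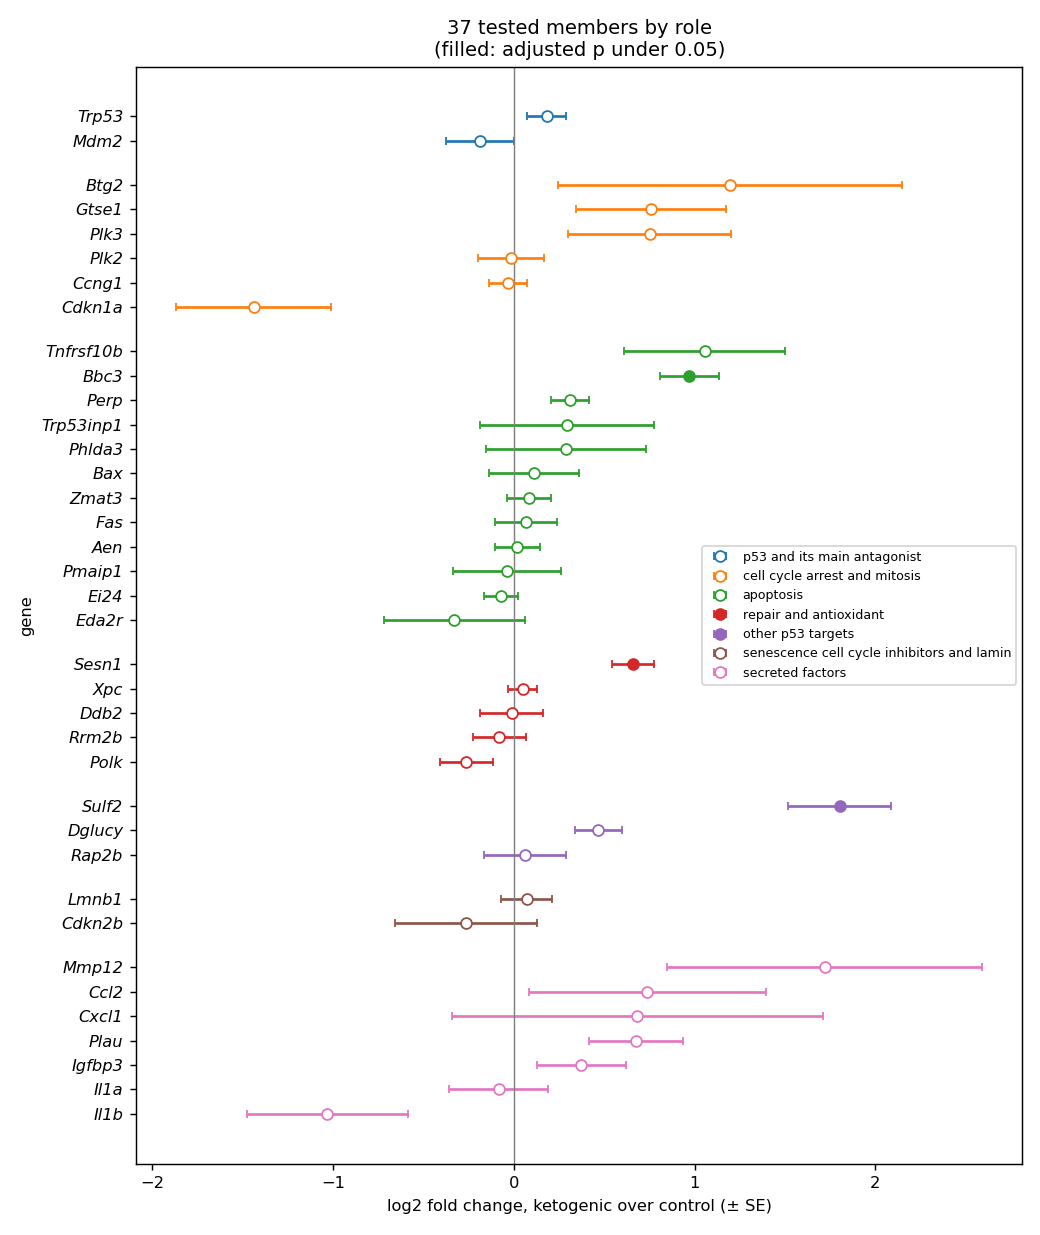
Log2 fold change, ketogenic over control, of the 37 tested members, with the SE as bars, grouped by role in colour; filled points passed an adjusted p of 0.05. The 3 filled points are Bbc3, Sesn1 and Sulf2, and Cdkn1a lies at -1.44.

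All 12 apoptosis genes were tested: 1 rose, and the other 11 missed the threshold in edgeR and in DESeq2. Bbc3 (ENSMUSG00000002083, chromosome 7, 16042318 to 16052130 by the deposited table) encodes Puma, a BH3-only protein that frees Bax and Bak at the mitochondrion. It had 3.30, 5.08 and 5.31 CPM in the lowest, median and highest control library and 6.92, 8.89 and 12.8 CPM in the ketogenic libraries. Every ketogenic library lay above every control library. The means were 4.67 ± 0.834 and 9.16 ± 1.99 CPM, which gave a log2 fold change of 0.97 ± 0.16 (adjusted p = 0.004035). The gene was called in each of the 20 alternatives, and without ketogenic 4, its highest library, the change was 0.85 (adjusted p = 0.00423).

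Other genes of the Bcl-2 family were not called, nor was Perp, which is outside that family. Bax, the pore-forming effector, had 12.7, 21.3 and 27.6 CPM in the control libraries and 17.1, 17.6 and 41.7 CPM in the ketogenic ones. Ketogenic 4 was alone at 41.7 CPM, and the next ketogenic library had 18.5 CPM. Its log2 fold change of 0.11 ± 0.25 (adjusted p = 0.893) turned to -0.18 without that library (adjusted p = 0.616). Pmaip1, which encodes the BH3-only protein Noxa, was at 18 to 45 counts per control and 25 to 59 counts per ketogenic library (log2 fold change -0.04 ± 0.30, adjusted p = 0.974; -0.29 without ketogenic 4). Perp, a membrane protein of desmosomes that p53 induces, had 97.7, 116 and 129 against 123, 142 and 166 CPM (0.31 ± 0.11, adjusted p = 0.138). All 6 ketogenic libraries lay above the control mean of Perp, and the diets overlapped.

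Receptors of the TNF receptor family were not called either. Fas was at 18.6 ± 2.93 against 19.4 ± 5.43 CPM (log2 fold change 0.07 ± 0.17, adjusted p = 0.909). Tnfrsf10b, the mouse receptor of TRAIL, was low at 6 to 36 counts per control and 10 to 69 counts per ketogenic library (1.06 ± 0.44, adjusted p = 0.237). Eda2r, the receptor of ectodysplasin A2, spanned 0.833 to 4.26 CPM in control and 0.995 to 2.17 CPM in ketogenic libraries (-0.33 ± 0.39, adjusted p = 0.764). Of the genes that act on survival signals or transcripts, Phlda3, an inhibitor of Akt, had 7.90 CPM in ketogenic 4 and 0.878 to 2.62 CPM in the other ketogenic libraries, so that its log2 fold change of 0.29 ± 0.44 (adjusted p = 0.828) turned to -0.41 without it (adjusted p = 0.431). Trp53inp1, which promotes autophagy and cell death, had 38.7, 74.7 and 217 against 52.3, 77.8 and 236 CPM (0.29 ± 0.48, adjusted p = 0.844), with replicate 6 highest in both diets. The exonuclease gene Aen (0.02 ± 0.13, adjusted p = 0.965), the gene Ei24 of the endoplasmic reticulum (-0.07 ± 0.09, adjusted p = 0.800) and the RNA-binding zinc finger gene Zmat3 (0.09 ± 0.12, adjusted p = 0.813) differed by no more than their error.

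**Figure D3:**
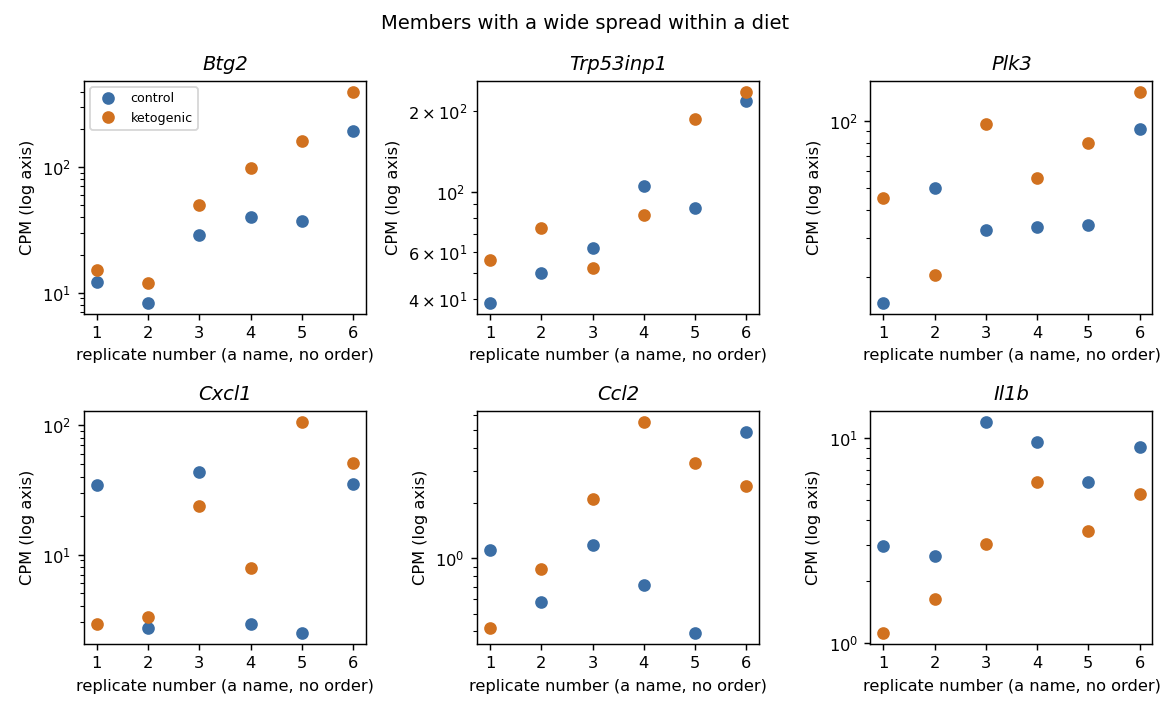
CPM (log axis) by replicate number, which is a name and no order, of 6 members that vary widely within a diet; control in blue, ketogenic in orange. Replicate 6 is the highest library of both diets for Btg2, Trp53inp1 and Plk3, while high values of Cxcl1 and Ccl2 fall in differing replicates.

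In the group of 5 repair and antioxidant genes, 1 rose and 4 missed the threshold in edgeR and in DESeq2. Sesn1 (ENSMUSG00000038332, chromosome 10, 41685931 to 41784420 by the deposited table) encodes sestrin 1, which restrains the growth kinase complex mTORC1 and limits peroxides. It had 8.98, 12.5 and 14.8 CPM in the lowest, median and highest control library and 17.5, 20.1 and 20.5 CPM in the ketogenic ones. The diets did not overlap, and the ketogenic libraries lay close together. From 12.3 ± 2.06 to 19.4 ± 1.31 CPM, the log2 fold change was 0.66 ± 0.12 (adjusted p = 0.00550). The gene was called in each of the 20 alternatives, with a change of 0.65 without ketogenic 4 (adjusted p = 0.00641).

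The genes of DNA repair proper were not called. Xpc and Ddb2, which recognise lesions in nucleotide excision repair, had log2 fold changes of 0.05 ± 0.08 (adjusted p = 0.837) and -0.01 ± 0.18 (adjusted p = 0.983). Xpc, at 26.3 ± 1.81 against 27.2 ± 1.49 CPM, had the smallest SE of the 37 members. The Ddb2 count of 50 to 91 per library is uncertain, since the more abundant gene Acp2 overlaps it on the opposite strand and no strand setting of the counting is stated. Acp2 was not called (0.17, adjusted p = 0.417). Rrm2b, the p53-induced subunit of ribonucleotide reductase, was at 4.48 ± 0.541 against 4.24 ± 0.762 CPM (-0.08 ± 0.15, adjusted p = 0.861). The translesion polymerase gene Polk was at 6.72 ± 1.18 against 5.597 ± 0.830 CPM (-0.26 ± 0.15, adjusted p = 0.407).

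Of the other 3 targets, 1 rose. Sulf2 (ENSMUSG00000006800, chromosome 2, 165915009 to 165997583 by the deposited table) had 2.29, 4.42 and 6.37 CPM in the lowest, median and highest control library and 9.80, 14.1 and 30.6 CPM in the ketogenic libraries. Every ketogenic library lay above every control library, and ketogenic 6 was the highest. From 4.58 ± 1.46 to 16.0 ± 7.43 CPM, the log2 fold change was 1.80 ± 0.28 (adjusted p = 0.00257), the largest absolute change among the 37. Sulf2 was called in each of the 20 alternatives, and the change was 1.51 without ketogenic 6 (adjusted p = 0.00265) and 1.87 without ketogenic 4 (adjusted p = 0.00474). Ncoa3, which overlaps the span of Sulf2 on the opposite strand, was at 33.2 ± 5.80 against 33.6 ± 7.95 CPM (0.02 ± 0.17, adjusted p = 0.977).

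Dglucy, which encodes the mitochondrial D-glutamate cyclase, had 25.8, 30.7 and 43.0 CPM in the control and 33.9, 45.4 and 50.9 CPM in the ketogenic libraries. Its ketogenic libraries all lay above the control mean, and the diets overlapped because control 5, at 43.0 CPM, lay above ketogenic 1 and ketogenic 4. The log2 fold change of 0.47 ± 0.13 missed the threshold (adjusted p = 0.0602) and passed it in 5 of 20 alternatives, among them without control 5 (adjusted p = 0.0162) and without ketogenic 4 (adjusted p = 0.0169). Rap2b, a small GTPase gene, was at 1.73 ± 0.442 against 1.81 ± 0.514 CPM (0.06 ± 0.23, adjusted p = 0.937).

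**Figure D4:**
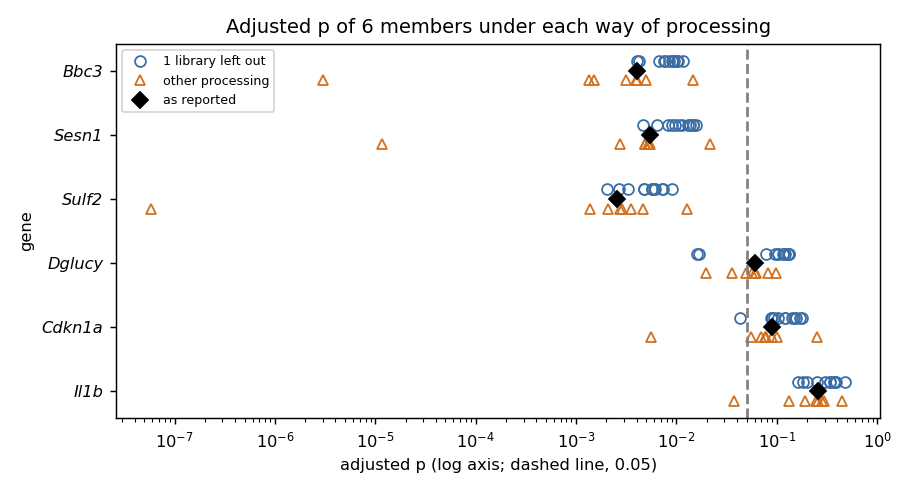
Adjusted p (log axis, threshold of 0.05 as a dashed line) of 6 members as reported (diamonds), with 1 library left out (12 circles each) and under 8 other ways of processing (triangles). Bbc3, Sesn1 and Sulf2 stay below 0.05 throughout, and Cdkn1a and Dglucy lie on either side of it. Il1b lies below it only with the replicate number as a block.

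Of the senescence markers in the nucleus, 2 of 3 were tested and 0 were called by edgeR, DESeq2 or limma-voom, with 0 at an unadjusted p under 0.05. The p16 gene Cdkn2a had 6, 2, 7, 1, 2 and 16 counts in control 1 to 6 and 3, 7, 8, 3, 2 and 8 counts in ketogenic 1 to 6. It was thus detected in all 12 libraries, at a level of at most 0.564 CPM. It did not pass the filter, and without a filter its log2 fold change was -0.28 ± 0.61 (adjusted p = 0.863). The table counts p16 and p19Arf, which share exons of this gene, as 1 gene. Cdkn2b, which encodes the kinase inhibitor p15, had 7 to 21 counts in control and 6 to 23 counts in ketogenic libraries (log2 fold change -0.26 ± 0.39, adjusted p = 0.822). Lmnb1 had 4.07, 5.84 and 6.57 CPM in the lowest, median and highest control library and 5.00, 5.602 and 6.62 CPM in the ketogenic ones, which overlapped almost fully (0.07 ± 0.14, adjusted p = 0.874). At this depth a difference in Cdkn2a or Cdkn2b could have been missed.

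Of the 9 secreted factors, 7 were tested and 0 were called by edgeR, DESeq2 or limma-voom, with 2 at an unadjusted p under 0.05 (Plau and Il1b). Plau, which encodes the protease urokinase, had the smallest p. Its control libraries had 1.24, 2.48 and 2.89 CPM and its ketogenic libraries 2.78, 3.05 and 7.003 CPM, with ketogenic 4 highest (log2 fold change 0.68 ± 0.26, adjusted p = 0.185; 0.39 without ketogenic 4). The chemokine gene Ccl2 had 0.391, 0.915 and 4.86 CPM in control and 0.419, 2.28 and 5.53 CPM in ketogenic libraries (0.74 ± 0.66, adjusted p = 0.661). That change was 0.32 without ketogenic 4 and 1.62 without control 6, the highest control library (adjusted p = 0.848 and 0.151). Mmp12, the macrophage elastase, had 0.479, 0.881 and 3.40 against 0.195, 2.05 and 15.3 CPM (1.72 ± 0.87, adjusted p = 0.360), and the change was 0.63 without ketogenic 4, which gave the 15.3, and 2.33 without control 5, which gave the 3.40 (adjusted p = 0.710 and 0.228). For all 3 genes the diets overlapped.

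Il1b, an inflammatory cytokine of macrophages, had 2.66, 7.58 and 12.03 CPM in control and 1.12, 3.29 and 6.11 CPM in ketogenic libraries. All 6 ketogenic libraries lay below the control mean, at a log2 fold change of -1.03 ± 0.45 that was not called (adjusted p = 0.256). Il1a was at 6.21 ± 2.02 against 5.86 ± 2.41 CPM (-0.08 ± 0.28, adjusted p = 0.931). The neutrophil chemokine gene Cxcl1 ran from 2.46 to 43.7 CPM in control and from 2.90 to 106 CPM in ketogenic libraries, with some livers of each diet near 3 CPM and others above 20 CPM (0.68 ± 1.03, adjusted p = 0.823; -0.18 without ketogenic 5). Igfbp3, a carrier of insulin-like growth factors made by non-parenchymal liver cells, was at 33.1 ± 13.5 against 42.9 ± 10.9 CPM (0.37 ± 0.25, adjusted p = 0.513; 0.22 without ketogenic 4). Il6 had 1 to 4 counts in each control library and 1, 0, 1, 0, 0 and 4 counts in ketogenic 1 to 6. Its zeros in ketogenic 2, 4 and 5 allow up to 0.0878, 0.0959 and 0.0949 CPM (3 counts each), and without a filter it was not called (adjusted p = 0.559). Tnf had 3 to 7 counts in control and 2 to 18 counts in ketogenic libraries (adjusted p = 0.807 without a filter). At these counts a difference in Il6 or Tnf could have been missed.

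**Figure D5:**
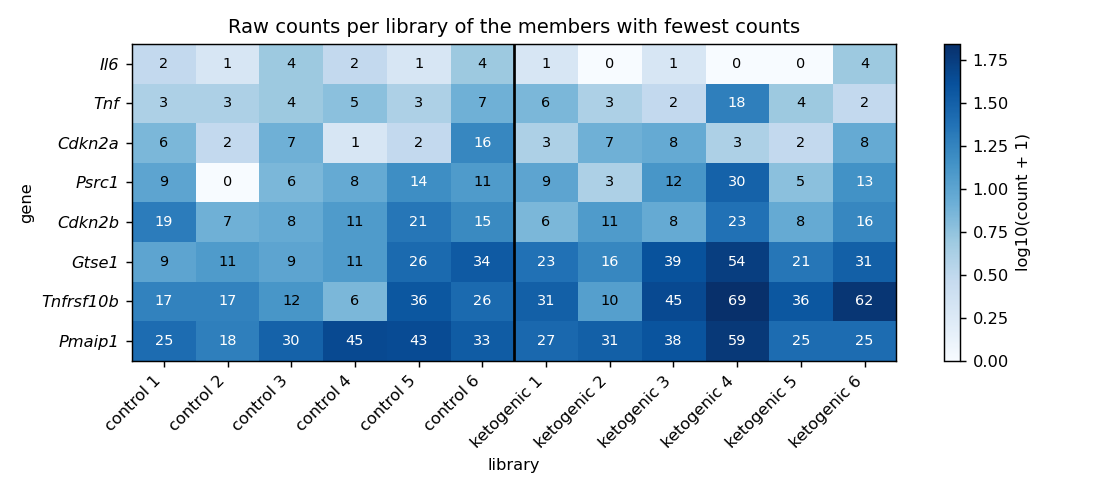
Raw counts per library (numbers in the cells; colour, log10 of the count plus 1) of the 8 members with fewer than 80 counts in each library, control libraries left of the line and ketogenic libraries right of it. Il6, Tnf, Cdkn2a and Psrc1 were below the filter, and the zeros are 3 ketogenic libraries for Il6 and control 2 for Psrc1.

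Levels between genes can be compared only per transcript length. In mean CPM per kb of exon over the 12 libraries, the most abundant members were Perp at 65.7, Ei24 at 46.0 and Btg2 at 32.0. The least abundant were Il6 at 0.0221, Psrc1 at 0.0929, Tnf at 0.0966 and Cdkn2a at 0.146. Cdkn1a stood at 10.2, above Trp53 at 5.95 and Bbc3 at 3.26, and the secreted factors other than Cxcl1 and Igfbp3 stood at or below 3.06.

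The wider p53 and senescence network was read from 139 other genes in 4 lists, of which 125 were tested. Gdf15, a secreted p53 target that was not called, stood in 2 of the lists and is counted once in these totals. In all, 3 rose and 1 fell (3.20%, near the 3.78% of all genes). Of 57 other p53 targets, 55 were tested, 2 rose and 0 fell, with a median log2 fold change of 0.03. Fdxr, the mitochondrial ferredoxin reductase, rose from 13.3 ± 1.00 to 20.1 ± 3.12 CPM without overlap (0.60 ± 0.11, adjusted p = 0.00689). Tgfa, a ligand of the EGF receptor, rose from 34.5 ± 3.33 to 45.2 ± 5.33 CPM (0.39 ± 0.10, adjusted p = 0.04695). That call was lost in 10 of the 12 fits with a library left out, and was kept only without control 5 or without ketogenic 4 (range of adjusted p 0.00651 to 0.0987).

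Among 18 regulators of p53 and DNA damage kinases (such as Mdm4, Atm and Chek2), all tested, 0 rose and 0 fell, with 0 at an unadjusted p under 0.05 and a median log2 fold change of -0.04. A further list of 14 genes held cell cycle inhibitors, the Rb family and also genes that drive the cycle, Cdk6 among them. Of these 14, 0 were called and 1 had an unadjusted p under 0.05, the kinase gene Cdk6 (0.51 ± 0.21, adjusted p = 0.235). The median over this mixed list was -0.05. Of 51 other secreted factors 39 were tested, 1 rose and 1 fell, with a median of 0.09. Igfbp2, which encodes a hepatocyte-made carrier of insulin-like growth factors, rose from 506 ± 123 to 1189 ± 350.2 CPM without overlap (1.23 ± 0.20, adjusted p = 0.00312). Inhba, which encodes the activin A subunit, fell from 49.6 ± 15.3 to 16.9 ± 7.93 CPM (-1.56 ± 0.31, adjusted p = 0.0122), a call lost without the filter on low counts (-1.55, adjusted p = 0.0573). Without ketogenic 4, 7 genes of these lists were called, 4 higher and 3 lower, in place of 4.

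Markers of the cells that could supply these transcripts were compared beside them. In whole liver, fewer cells of a type and less RNA per cell cannot be told apart. Hepatocyte markers (6 of 6 tested, Alb among them) summed to 74177 to 110162 CPM in control and 68578 to 90925 CPM in ketogenic libraries, the highest sums of the 8 lists, in tissue labelled liver. Sums for 10 Kupffer cell and macrophage markers ran from 349 to 622 against 384 to 709 CPM, and ketogenic 4 had the lowest ketogenic sum. Those for 6 neutrophil markers ran from 4.95 to 8.73 against 6.65 to 19.1 CPM, with the 19.1 in ketogenic 4. Those for 8 markers of stellate cells and fibroblasts ran from 285 to 791 against 305 to 641 CPM, and those for 8 proliferation markers from 5.99 to 23.0 against 7.78 to 23.0 CPM, with ketogenic 4 the highest ketogenic library in both. For lymphocytes (9 markers), endothelial cells (6) and bile duct cells (5), the ranges of 14.6 to 25.5 against 12.9 to 23.3, 287 to 369 against 313 to 412 and 9.72 to 20.1 against 8.76 to 21.5 CPM overlapped as well, with ketogenic 4 lowest among ketogenic libraries for endothelial and highest for bile duct markers. Single markers in ketogenic 4 did not all follow the sums. Of the endothelial list, Stab2, Kdr and Cdh5 (58.0, 51.7 and 27.9 CPM) were there the lowest of all libraries. Clec4g and Lyve1 (103 and 35.0 CPM) were the highest, and Pecam1 (37.5 CPM) lay between. Exon lengths were 8757, 9030 and 4203 bases for Stab2, Kdr and Cdh5, 2462 and 2919 for Clec4g and Lyve1, and 6228 for Pecam1. Of the macrophage list, Adgre1, Clec4f, Csf1r, Marco, Vsig4 and Timd4 were at their lowest ketogenic value. Ccr2 and Itgam (5.12 and 1.18 CPM) were at their highest, and Cd68 and Cd5l lay between. Here exon lengths were 6760 and 5024 bases for Ccr2 and Itgam, and 1484 to 5774 for the genes at their lowest. No marker gene of the 8 lists was called, and none was at 0 in all libraries. The part of these cells in the values of single livers was not tested, nor was that of exon length in ketogenic 4.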

How the data were processed

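The deposited table holds counts per gene for each library, which its values show to be whole numbers without normalization. Per the labels, RNA was extracted with a column kit (RNeasy) and libraries were made with a NEBNext Ultra kit. Per the submitters' processing notes, the tools were HISAT2 2.1.0, fastp 0.19.3, Cufflinks and StringTie 1.3.4d, with no role stated. Neither the counter, its strand setting nor a genome build is stated, so overlapping genes may share reads.

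The 2 diets were tested against each other in R 4.3.3 by edgeR 4.0.16 (filterByExpr, TMM factors, robust quasi-likelihood fit, diet as the only term) over 13995 genes, and adjusted by Benjamini-Hochberg over all of them. A gene was called at an adjusted p under 0.05. The SE is the log2 fold change divided by the square root of F. CPM uses TMM-scaled library sizes, and the totals before scaling were 30.2 to 33.5 M counts. Floors of 3 counts cover counting error only. No pair of libraries of 1 diet was a duplicate (lowest chi-square per degree of freedom 40.8). Steps were tested on simulated data.

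Exon lengths came from GENCODE M21 and matched 13975 of the tested genes by ID. Promoter windows came from RefSeq (GRCm38.p6) by symbol; their coordinates are not those of the deposited table. Alternatives were DESeq2 1.42.0, limma-voom (limma 3.58.1), RLE factors, library size only, no filter, at least 1 CPM in 6 libraries, the replicate number as a block, removal of each library's trend on exon length (a spline with 4 degrees of freedom on log2 CPM, prior count 2) and each library left out.

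All 41 members are named. Full values are given for members called, for Cdkn1a, Trp53, Mdm2, Cdkn2a, Ccl2 and Lmnb1, and for the smallest p of each role. Of the 4 other lists, genes called are named, and Cdk6, chosen after its value was seen. Members, lists and the rule were chosen with earlier results of these data known.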

Additional observations from a re-analysis of the deposited data

Results flagged for a closer look

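In 17 of 82 groups of 6 libraries (41 members in 2 diets), the highest or lowest library lay farther from its nearest neighbour than Dixon's 95% critical value for 6 samples allows. Chance flags about 1 in 20 groups where values are normally distributed. CPM was used here without a log, so that rate is only a guide, and the groups share their libraries. Of the 17, 9 were high values in ketogenic 4. They were Bax at 41.67 CPM (next 18.54), Plau at 7.003, Plk2 at 24.21, Phlda3 at 7.899, Pmaip1 at 1.887, Igfbp3 at 63.99, Mmp12 at 15.29, Tnf at 0.5756 (18 counts) and Psrc1 at 0.9594 CPM (30 counts). These span apoptosis, cell cycle and secreted genes, and ketogenic 4 is the library in which short transcripts were high. The exon lengths of these genes ran from 1559 bases (Phlda3) to 7237 bases (Mmp12), so they were not all short. The part of length in each value was not tested.

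Control 6 was high for 3 genes, with Btg2 at 194.4 CPM (next 39.91), Trp53inp1 at 217.4 CPM (next 105.1) and Ccl2 at 4.861 CPM (next 1.176). Ketogenic 6 was high for Sulf2 at 30.63 CPM and for Il6 at 0.1204 CPM, the latter only 4 counts. Control 5 was high for Rrm2b at 5.560 CPM and for Mmp12 at 3.396 CPM. Xpc was high in control 4 at 29.64 CPM, where the other control libraries had at most 26.15 CPM.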

How the results depend on the processing

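Bbc3, Sesn1 and Sulf2 were called higher in all 20 alternatives. The count of members called was 3 as reported, 5 with DESeq2 and 3 to 5 with a library left out (5 without ketogenic 4). All genes called were 529 as reported, 1028 with DESeq2 and 319 to 761 with a library left out (319 without control 3, 336 without ketogenic 6, 761 without ketogenic 4). The other p53 and senescence lists had 4 calls as reported, 9 with DESeq2 and 3 to 7 with a library left out. With the replicate number as a block, all genes called were 268, members called 4 and the other lists 2; the calls of Fdxr and Tgfa were lost (adjusted p = 0.0593 and 0.103) and Il1b was called lower (-1.04, adjusted p = 0.0373). The numbers were not taken to pair the samples: the labels give them no meaning, and the correlation of same-numbered deviations ran from -0.291 to 0.336 over the 6 numbers. The libraries numbered 2 and 6 correlated best with their own number in both diets and the others did not.

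Of 736 alternative values of single members, 688 kept their direction and side of the threshold, 8 became called and 40 changed sign, none of the 40 a called value. Scaling by library size alone gave a log2 fold change of 0.0414 for Ccng1, 0.0568 for Plk2, 0.0369 for Pmaip1, 0.00096 for Ei24 and 0.0657 for Ddb2. Phlda3 was at -0.0858 with limma-voom and -0.0895 with the block. With a library left out, log2 fold changes ran from -0.0814 to 0.0394 for Ccng1, -0.16 to 0.11 for Plk2, -0.18 to 0.23 for Bax, -0.29 to 0.10 for Pmaip1, -0.0410 to 0.15 for Fas, -0.41 to 0.47 for Phlda3, -0.0400 to 0.0903 for Aen, -0.0520 to 0.74 for Trp53inp1, -0.10 to 0.0550 for Ddb2, -0.15 to 0.00093 for Rrm2b, -0.0801 to 0.17 for Rap2b, -0.00029 to 0.13 for Lmnb1, -0.32 to 0.0360 for Il1a and -0.18 to 1.07 for Cxcl1. The cause of these moves was not tested. Depth limits Cdkn2a, Il6, Tnf and Psrc1, which had at most 30 counts in a library, and Cdkn2b, which had at most 23.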
